A study of Mus musculus with 15 samples.

Results

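Tibial subchondral bone of Pvalb conditional knockout mice was compared with that of wild-type mice after destabilization of the medial meniscus (DMM), an operation that cuts a ligament of the knee meniscus and leads to osteoarthritis. The comparison used 5 knockout and 5 wild-type libraries of the 15 in the series, chosen by the names of the columns in the deposited table, and covered the 13653 of 55335 gene IDs with at least 1 FPKM (fragments scaled to transcript length and library size) in at least 5 libraries. The knockout mice carried Dmp1-Cre and floxed Pvalb alleles (Dmp1-Cre;Pvalb fl/fl). The wild-type mice were C57BL/6J per the growth protocol (the sham titles give C57BL/6) and, per the labels, carried neither. All were males operated on at 8 weeks of age, and bone was taken 8 weeks after surgery. The remaining 5 libraries, sham-operated wild-type mice, are given beside the results as a reference for the level without DMM. No knockout bone after sham surgery was analysed here, and the labels do not state the genetic background of the knockout mice, so effects of the deleted allele and of other differences between the mouse lines cannot be told apart. Libraries are labelled as biological replicates.

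Parvalbumin, the product of Pvalb, is a calcium buffer of the EF-hand family that speeds the relaxation of fast skeletal muscle fibres and shapes calcium signals in some neurons. Dmp1 is a gene of osteocytes, the cells embedded in bone matrix, and its promoter drives Cre in osteocytes and late osteoblasts; activity of Dmp1-driven Cre in skeletal muscle is also known. Osteocytes sense load, in part through calcium signals, and secrete sclerostin (Sost) and other factors that restrain Wnt signalling, as well as RANKL (Tnfsf11), which drives the formation of osteoclasts. After DMM, subchondral bone is remodelled under abnormal load.

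Library sums of FPKM ran from 375453 to 468423. Read counts were not used here, but low values step by whole reads. From these steps, the number of reads behind the FPKM of the 10 DMM libraries ran from 0.745 to 1.241 times that of wild-type DMM replicate 1, with means of 0.969 in the knockout and 1.082 in the wild-type group, and the absolute depth stays unknown. Of the osteocyte, osteoblast and osteoclast genes tested, none was at 0 in a DMM library, as the label of bone requires. The libraries also held RNA of skeletal muscle and marrow: the summed FPKM of 20 fast muscle genes ran from 548.6 to 3336 in knockout and from 290.3 to 2751 in wild-type DMM libraries. In bulk bone, fewer cells of a type and less RNA per cell cannot be told apart. Wild-type DMM replicate 3 and knockout replicates 1 and 4 lay far from the other libraries on the first principal component, which held 32.2% of the variance, so list medians, and gene differences that move by over 1.5 times, are also given without these 3 libraries.

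Pvalb itself did not separate the groups, but it was lower in the knockout relative to the muscle genes it accompanies. Pvalb (ENSMUSG00000005716) was 132, 95.3, 375, 39.1 and 33 FPKM in wild-type DMM replicates 1 to 5. In the knockout libraries after DMM it was 28.7, 23.7, 162, 88.4 and 166 FPKM. The groups overlapped, the targeted gene was present in every knockout library, and its log2 difference was -0.38 (95% confidence interval -2.39 to 1.63; two-sided exact permutation p = 0.659 with 5 libraries on each side). The direction depended on single libraries: the difference was 0.13 without wild-type DMM replicate 3, 0.00 (0.003) without knockout replicate 2 and 0.44 without the 3 outlying libraries. Fast muscle genes were higher in value in the knockout, with all 20 tested members above wild-type (median log2 difference 0.69) and none past an adjusted p of 0.05. The median was 0.34 without wild-type DMM replicate 5, 1.05 without wild-type DMM replicate 3 and 1.38 without the 3 outlying libraries.

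The 250 bases before each of the 2 annotated starts of Pvalb and before that of Ckm, the muscle creatine kinase, are shown because the levels of these genes vary with the muscle content of the libraries. They are RefSeq sequences of build GRCm38.p6. Capitals mark the single match of the MEF2 motif, a binding motif of muscle transcription factors, in the upstream start of Pvalb at chr15:78206401-78206650 (minus strand), and the single E-box, CANNTG, in the downstream start of Pvalb at chr15:78204238-78204487 (minus strand) and in Ckm at chr7:19410844-19411093 (plus strand). The upstream start of Pvalb held no E-box, and the other 2 sequences held no MEF2 match.
Pvalb, upstream start: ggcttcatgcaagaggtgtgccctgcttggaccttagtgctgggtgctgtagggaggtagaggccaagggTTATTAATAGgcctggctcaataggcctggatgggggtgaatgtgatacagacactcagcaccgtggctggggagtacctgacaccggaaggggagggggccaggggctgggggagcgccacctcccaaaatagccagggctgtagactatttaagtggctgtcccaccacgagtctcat
Pvalb, downstream start: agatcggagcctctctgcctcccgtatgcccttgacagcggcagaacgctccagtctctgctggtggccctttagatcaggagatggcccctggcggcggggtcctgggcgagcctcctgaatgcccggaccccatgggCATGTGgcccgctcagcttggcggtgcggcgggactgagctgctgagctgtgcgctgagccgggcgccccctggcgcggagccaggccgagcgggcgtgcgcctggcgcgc
Ckm: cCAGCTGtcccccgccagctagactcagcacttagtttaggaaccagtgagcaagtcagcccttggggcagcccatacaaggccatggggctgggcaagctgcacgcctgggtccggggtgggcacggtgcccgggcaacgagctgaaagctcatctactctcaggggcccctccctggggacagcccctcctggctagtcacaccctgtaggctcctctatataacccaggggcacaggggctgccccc
Both motifs read the same on either strand, and the marked matches do not overlap another. A MEF2 match was found in 2.92% and an E-box in 66.2% of the 32851 mouse promoters of this length. A match describes the letters only, and the start used in bone was not measured.

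Measured against muscle, Pvalb was lower in the knockout. The mean log2(FPKM + 1) of 20 fast muscle genes was subtracted from that of Pvalb in each library. The result was 2.01, 1.64, 2.46, 1.63 and 1.77 in wild-type DMM replicates 1 to 5 and 0.18, 0.57, 0.96, 1.53 and 1.12 in knockout replicates 1 to 5. All knockout libraries lay below all wild-type DMM libraries, and knockout replicate 4 came nearest to them. The means were 0.87 ± 0.52 in the knockout and 1.90 ± 0.35 in wild-type DMM bone (SD, n = 5 each), a difference of -1.03 or a 2.04-fold lower value. The exact two-sided permutation p was 0.0079, the smallest that 252 arrangements allow. Sham wild-type bone had 1.81 ± 0.16, with a range from 1.61 to 2.05. The choice of a muscle reference was made with a similar ratio already known from these libraries. In the limma fit over all genes with the fast muscle level as a covariate, the Pvalb difference was -1.11. It did not pass there (limma adjusted p = 0.462).

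The size of the lower value varied with the muscle gene used. Set against each of the 20 genes in turn, the mean Pvalb ratio was lower in the knockout for 20 of 20, by log2 differences from -0.63 to -1.21. The shared direction was fixed beforehand, since Pvalb was lower and all 20 genes higher in value, so it is no added support. The exact permutation p, adjusted over the 20 ratios by Benjamini-Hochberg, was under 0.05 for 17 of them and ran from 0.0176 to 0.31. For 9 of the 20 the knockout and wild-type DMM libraries did not overlap. The 20 genes share the same muscle RNA and are not independent. For Pvalb relative to fast muscle without the 3 outlying libraries the difference was -0.88 (exact permutation p = 0.0571, the smallest that 3 against 4 libraries allow).

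**Figure D1:**
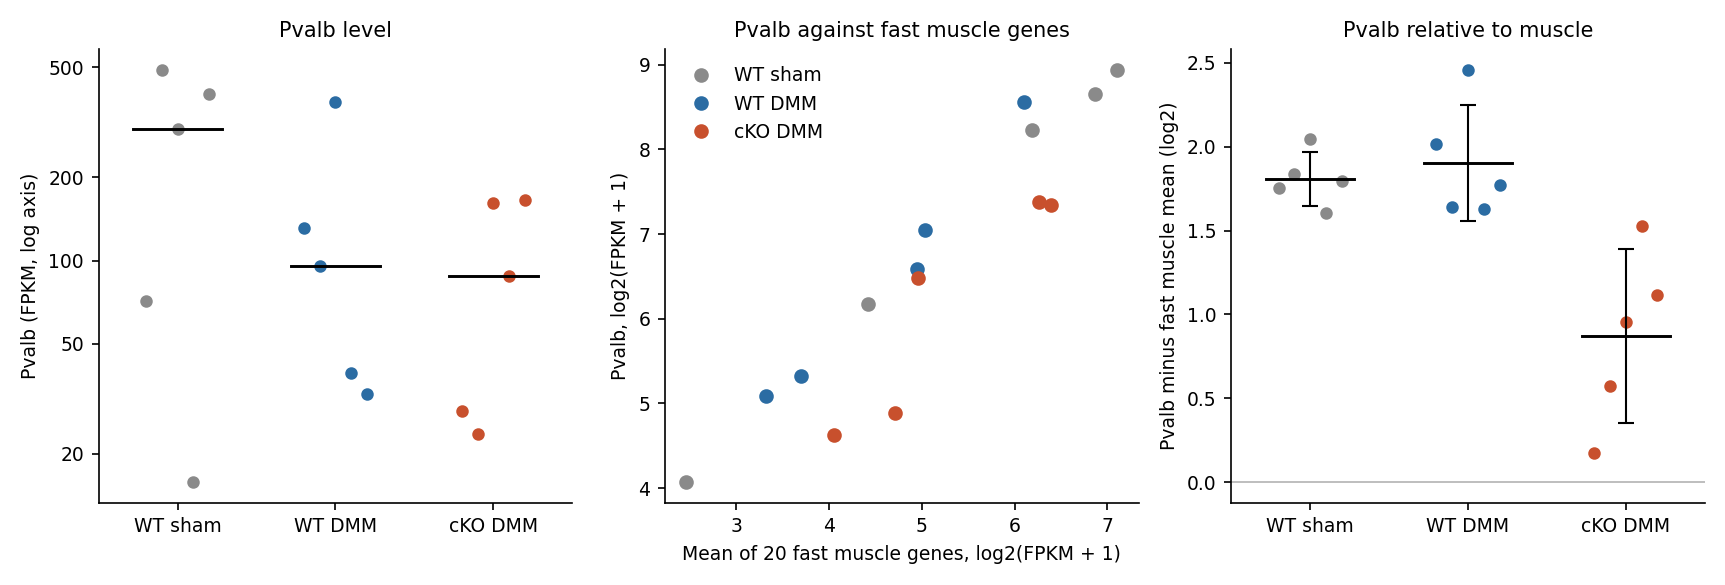
Pvalb in FPKM on a log axis (left, bars are medians), Pvalb against the mean of 20 fast muscle genes, both as log2(FPKM + 1) (middle), and their difference on the log2 scale (right, bars are means and SD), with 1 point per library in sham wild-type, DMM wild-type and DMM knockout bone. The Pvalb levels overlap between groups, while the 5 knockout differences, 0.18 to 1.53, all lie below the wild-type DMM differences, 1.63 to 2.46.

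Across the transcriptome 1 gene passed the test. Differences were taken on the log2(FPKM + 1) scale, which understates changes of low genes, and tested with limma, with Benjamini-Hochberg adjustment over the 13653 genes. The gene with an adjusted p under 0.05 was AC117239.2, which rose in the knockout (0.00732% of the genes tested); no gene fell (0%). All other genes had an adjusted p of 0.935 or more. Before adjustment, p was under 0.05 for 444 genes (3.25%), of which 151 (1.11%) had the higher and 293 (2.15%) the lower level in knockout bone. The knockout and wild-type DMM libraries did not overlap for 52 genes (0.381%), 18 of them higher (0.132%) and 34 lower (0.249%) in the knockout.

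Most genes differed little. The median size of the difference was 0.09 log2 units, the median standard error 0.12, and 25 genes had a difference over 1. Of the tested genes 54.9% were lower and 45.1% higher in value in the knockout; the lower share turned to 41.2% when the libraries were scaled by median-of-ratios, so the split between directions depends on the scaling. The median difference over all genes was -0.02, and 0.03 with that scaling. The gene lists below held 373 distinct genes, of which 331 were tested. Of these, 18 were lower and 2 higher at an unadjusted p under 0.05, and 0 passed after adjustment. Over all genes tested the shares at this level were 2.15% lower and 1.11% higher. The lists were chosen with earlier results of these data known.

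**Figure D2:**
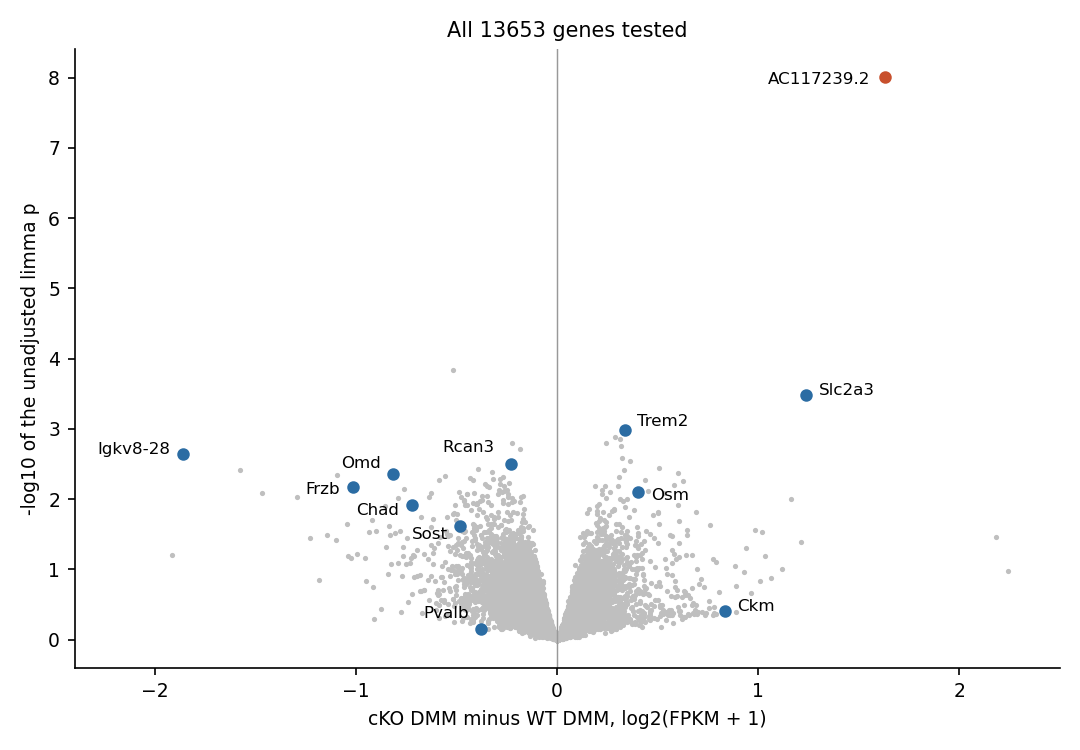
Log2 difference between knockout and wild-type DMM bone (horizontal axis) against the negative log10 of the unadjusted limma p (vertical axis) for all 13653 genes tested, 1 point per gene. AC117239.2, at 1.63, stands alone above the rest; the blue named genes did not pass the adjusted threshold.

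AC117239.2 (ENSMUSG00000117621) was about 4 times as high in the knockout. Its FPKM was 1.36, 1.01, 2.00, 1.73 and 1.68 in wild-type DMM replicates 1 to 5 and 6.75, 5.29, 6.00, 9.26 and 7.39 in knockout replicates 1 to 5. The means were 6.94 ± 1.52 and 1.56 ± 0.38 FPKM (SD, n = 5), a ratio of 4.46. The lowest knockout library lay well above the highest wild-type one, and sham wild-type bone had 0.857 to 1.58 FPKM, as low as wild-type bone after DMM. The log2 difference was 1.63 (SE 0.14, 95% confidence interval 1.33 to 1.93; limma adjusted p = 0.000135). It stayed past the threshold in every alternative fit, with adjusted p from 1.28e-05 to 0.00596.

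AC117239.2 is a copy of Hspe1, which encodes the mitochondrial chaperonin Hsp10, the partner of Hsp60 (Hspd1). Over all 515 bases of the annotated transcript it aligned to Hspe1 with 99.0% identity and 5 mismatches, so the division of reads between the copy and the parent gene is uncertain. Hspe1 was 35.0, 27.5, 61.6, 36.5 and 33.5 FPKM in wild-type DMM replicates 1 to 5 and 50.0, 41.1, 37.1, 61.7 and 42.4 FPKM in knockout replicates 1 to 5. These ranges overlapped (log2 difference 0.28, SE 0.18, limma unadjusted p = 0.138). AC117239.2 stood at 13.5%, 12.9%, 16.1%, 15.0% and 17.4% of the Hspe1 level in the knockout libraries and at 3.24% to 5.03% in the wild-type DMM libraries.

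The copy lies within the annotated model of Commd10, a gene of the COMMD family. Commd10 was 1.64, 0.917, 1.87, 1.68 and 1.61 FPKM in wild-type DMM replicates 1 to 5 and 1.09, 0.848, 0.902, 1.69 and 0.777 FPKM in knockout replicates 1 to 5. Its log2 difference had the opposite sign, -0.31 (SE 0.14, limma unadjusted p = 0.0483), and the groups overlapped. Commd10 was chosen after its values were seen. The RNA levels of other mitochondrial chaperones overlapped between the groups: Hspd1 had a log2 difference of 0.21 and Dnaja3, a mitochondrial Hsp40, one of 0.25. All 16 mitochondrial chaperone and protease genes were tested, 13 were higher in value, and their median was 0.09 against -0.02 over all genes.

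Nnt, nicotinamide nucleotide transhydrogenase, makes NADPH in mitochondria, and C57BL/6J mice carry a deletion within this gene. It has 2 IDs in the table whose models share exons, so values of either alone depend on how reads were divided. The ID ENSMUSG00000116207 was 6.50, 7.31, 6.88, 6.86 and 5.88 FPKM in wild-type DMM replicates 1 to 5. In knockout replicates 1 to 5 it was listed at 0, 2.26, 0, 5.37 and 6.94 FPKM. Knockout replicates 4 and 5 thus held values near those of the wild-type libraries, while replicates 1 and 3 were listed at 0.

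The other ID, ENSMUSG00000025453, was higher in knockout replicates 1 to 3. It was 3.76, 2.81, 7.50, 0.557 and 0.546 FPKM in knockout replicates 1 to 5 and 0.322 to 1.41 FPKM in wild-type DMM libraries. It held 100%, 55.4%, 100%, 9.4% and 7.3% of the summed Nnt FPKM in knockout replicates 1 to 5, against 4.47% to 17% in wild-type DMM libraries and 4.29% to 18.0% in sham libraries. The knockout libraries differed among themselves in Nnt, and the sum of both IDs was 5.95 ± 1.61 FPKM in the knockout and 7.63 ± 0.63 FPKM in wild-type DMM bone (SD, n = 5). Whether this pattern came from the genomic allele at Nnt was not tested.

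Both Nnt IDs overlapped between the groups, while a pair of genes near Nnt did not. Lack of overlap with lower values held for 0.249% of all genes tested, and both genes of the pair were chosen after their values were seen. 4833420G17Rik was 11.1, 11.7, 11.8, 12.0 and 11.9 FPKM in wild-type DMM replicates 1 to 5 and 10.0, 10.5, 10.0, 10.5 and 9.88 FPKM in knockout replicates 1 to 5 (log2 difference -0.19, SE 0.05, limma unadjusted p = 0.00196). Gm9752, whose model overlaps that of 4833420G17Rik, had a log2 difference of -0.22, and reads of the pair may not be separable. Sham wild-type bone had 10.6 to 11.6 FPKM of 4833420G17Rik, above the knockout range and overlapping the wild-type DMM range. Paip1, the gene between Nnt and this pair, had a log2 difference of 0.08.

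Gpx1, glutathione peroxidase, a peroxide-removing enzyme of the redox list, varied widely between knockout libraries. It was 1150, 993, 1123, 931 and 1134 FPKM in wild-type DMM replicates 1 to 5 and 274, 274, 882, 340 and 1115 FPKM in knockout replicates 1 to 5. Of the 5 knockout libraries 3 were far below the wild-type DMM range, 1 was just below it and 1 lay within it. Sham libraries ran from 204 to 1149 FPKM, so low values also occurred in sham-operated wild-type bone (log2 difference between the DMM groups -1.15, limma unadjusted p = 0.0322, and -0.70 without the 3 outlying libraries). Of 12 genes in the redox list 11 were tested, 4 were lower and 7 higher in value, with a median of 0.02.

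The genes beside Pvalb did not stand apart. Of the 30 annotated genes nearest to it, 15 on each side, 19 were tested. Of these, 13 were higher and 6 lower in value in the knockout, with log2 differences from -0.16 to 0.24 and a median of 0.03. None had an unadjusted p under 0.05, and the DMM groups overlapped for every one.

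**Figure D3:**
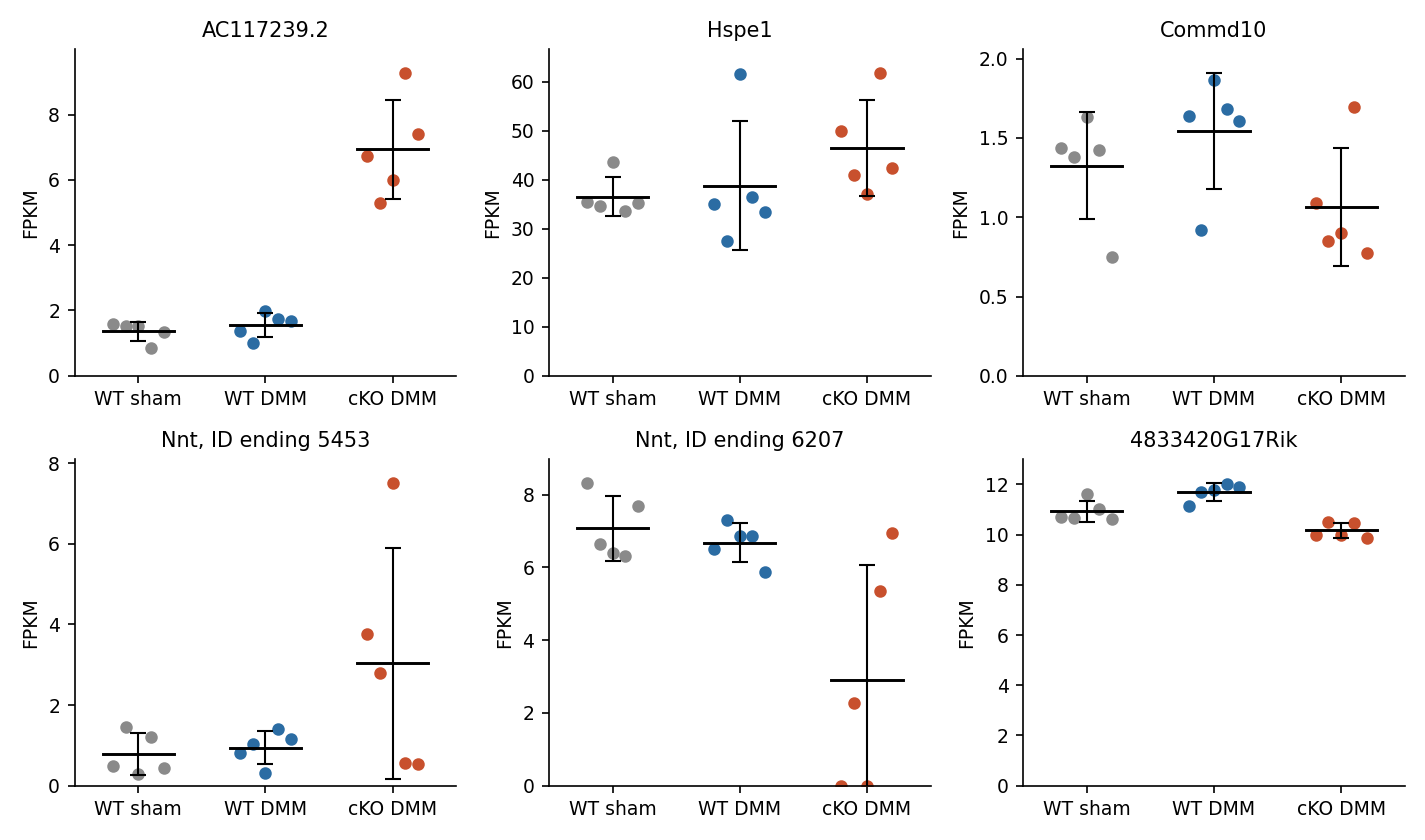
FPKM of AC117239.2, its parent Hspe1, its host Commd10, both Nnt IDs and 4833420G17Rik, with 1 point per library in sham wild-type, DMM wild-type and DMM knockout bone; bars are means and SD, and axes start at 0. AC117239.2 is high in all 5 knockout libraries, and the Nnt IDs split the knockout libraries, with replicates 1 to 3 apart from 4 and 5.

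Osteocyte genes were lower in value in the knockout, though none passed the adjusted threshold. Of 12 osteocyte genes 10 were tested (Fgf23 and Ptprz1 were not), and 9 of the 10 were lower, with a median log2 difference of -0.29 against -0.02 over all genes. Sost, Phex and Dkk1 were lower with an unadjusted p under 0.05, as were 2.15% of all genes tested. The median was -0.15 without the 3 outlying libraries and -0.38 with the fast muscle level as a covariate, and it stayed between -0.37 and -0.26 with any 1 library left out. Whether the lower values came from fewer osteocytes in the sample was not tested.

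Sost encodes sclerostin, the osteocyte product that blocks Wnt co-receptors and limits bone formation. Its FPKM was 24.2, 26.0, 18.6, 20.8 and 27.3 in wild-type DMM replicates 1 to 5 and 15.7, 20.6, 15.5, 12.6 and 18.2 in knockout replicates 1 to 5. The wild-type values lay mostly above, with replicate 3 within the knockout range, and sham bone spanned 15.2 to 35.8 FPKM. The log2 difference was -0.48 (SE 0.19, limma unadjusted p = 0.0243, adjusted p = 0.935). Without the 3 outlying libraries it was -0.42.

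Dkk1, a secreted antagonist that binds the same co-receptors, was 6.61, 4.45, 8.03, 7.98 and 6.56 FPKM in wild-type DMM replicates 1 to 5. In knockout replicates 1 to 5 it was 5.44, 4.86, 4.33, 3.71 and 4.40 FPKM. The groups overlapped through wild-type replicate 2 alone (log2 difference -0.46, SE 0.19, limma unadjusted p = 0.0298). Phex, an endopeptidase of osteocytes that is mutated in X-linked hypophosphataemia, ran from 5.26 to 8.43 FPKM in wild-type DMM and from 2.5 to 6.35 FPKM in knockout bone, with a log2 difference of -0.47, or -0.26 without the 3 outlying libraries. Dmp1, the matrix protein gene whose promoter drives Cre here, was 48.8, 32.4, 40.6, 50.7 and 46.2 FPKM in wild-type DMM and 27.4, 39.5, 45.0, 21.4 and 28.6 FPKM in knockout replicates 1 to 5, and the ranges overlapped (log2 difference -0.45, limma unadjusted p = 0.15, and -0.24 without the 3).

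Secreted Wnt inhibitors had the lowest median of all 29 lists. Of 11 genes 9 were tested and 8 were lower in value in the knockout, with a median of -0.38 (-0.23 without the 3 outlying libraries, and between -0.45 and -0.31 with 1 library left out). Sost and Dkk1 belong to this list as well as to that of osteocytes. Frzb, a decoy receptor that binds Wnt ligands, was 9.13, 9.02, 9.18, 11.7 and 10.6 FPKM in wild-type DMM replicates 1 to 5 and 2.28, 2.91, 11.3, 3.12 and 5.91 FPKM in knockout replicates 1 to 5. In the knockout 4 libraries were below every wild-type DMM library and replicate 3 was within their range (log2 difference -1.02, SE 0.32, limma unadjusted p = 0.00677, adjusted p = 0.935). Without the 3 outlying libraries the difference was -0.68. Sham bone had 2.47 to 7.2 FPKM, lower than wild-type bone after DMM.

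Notum, which removes the lipid that Wnt ligands need, ran from 1.28 to 2.99 FPKM in wild-type DMM and from 1.31 to 2.19 FPKM in knockout bone (log2 difference -0.38, or -0.23 without the 3). Sfrp5, another decoy receptor of the Frzb family that was not in the list, was 1.69, 1.76, 2.13, 2.90 and 2.17 FPKM in wild-type DMM and 0.956, 1.10, 0.577, 1.30 and 1.13 FPKM in knockout replicates 1 to 5. The DMM groups did not overlap for Sfrp5 (log2 difference -0.64, SE 0.21, limma unadjusted p = 0.0093), while sham bone ran from 0.748 to 3.75 FPKM. Lack of overlap was among the rules for naming genes, and with lower values it held for 0.249% of all genes tested. The Sfrp genes tested in the list did not move together. Over all 10 DMM libraries Sfrp1 had a log2 difference of 0.22, Sfrp2 one of -0.25 and Sfrp4 one of -0.02, all with overlap. Without the 3 outlying libraries Sfrp1 was higher by more, Sfrp2 lower by less, and Sfrp4 turned higher in the knockout. The ligands, receptors and targets of the pathway differed less. Of 21 genes 14 were tested, 12 were lower in value and the median was -0.15, or -0.03 without the 3 outlying libraries and -0.08 without knockout replicate 1. The co-receptor Lrp4, through which sclerostin acts, had a log2 difference of -0.45 (limma unadjusted p = 0.0582), and Lrp5 one of -0.21.

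Among the 20 genes of osteoblasts and bone matrix 19 were tested (Bglap3 was not), and all 19 were lower in value in the knockout. Their median was -0.30, and -0.10 without the 3 outlying libraries, of which knockout replicates 1 and 4 had low values of many of these genes. Without knockout replicate 4 alone it was -0.18. Omd, osteomodulin, a small proteoglycan of mineralized matrix, was 20.1, 24.1, 17.5, 19.6 and 23.6 FPKM in wild-type DMM replicates 1 to 5 and 9.12, 11.4, 19.3, 7.18 and 13.1 FPKM in knockout replicates 1 to 5. It was the gene of the list with the smallest p (log2 difference -0.82, SE 0.24, limma unadjusted p = 0.00434), and knockout replicate 3 was within the wild-type range. Its model overlaps that of Cenpp, whose reads may be shared. Sham bone had 7.47 to 16.6 FPKM, a range that includes 3 of the 5 knockout values.

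Abundant matrix genes had smaller differences of the same sign. Sparc, osteonectin, ran from 830 to 1049 FPKM in wild-type DMM and from 527 to 953 FPKM in knockout bone (log2 difference -0.40, limma unadjusted p = 0.0529, and -0.15 without the 3 outlying libraries). Bglap2, an osteocalcin gene, had a log2 difference of -0.48, or -0.25 without the 3, and its close copies make the division of reads uncertain.

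Cartilage genes followed with a median of -0.36 over 17 tested of 18, 15 of them lower in value; the median was -0.12 without the 3 outlying libraries and -0.23 without knockout replicate 4. Chad, chondroadherin, is a cell-binding protein of cartilage matrix. It was the member whose DMM groups did not overlap, which held with lower values for 0.249% of all genes tested. It was 427, 515, 492, 436 and 538 FPKM in wild-type DMM replicates 1 to 5 and 260, 316, 401, 214 and 292 FPKM in knockout replicates 1 to 5. The log2 difference was -0.72 (SE 0.25, limma unadjusted p = 0.012), but sham bone spanned 185 to 608 FPKM, wider than the DMM groups together. The Chad model overlaps that of Acsf2, which had at most 7.15 FPKM. Comp, a pentameric cartilage matrix protein, had a log2 difference of -0.66 and the hypertrophic collagen Col10a1, whose model overlaps that of Nt5dc1, one of -0.71. Without the 3 outlying libraries these were -0.43 and -0.42, and for both genes knockout replicate 3 lay within the wild-type DMM range.

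Matrix proteases and fibroblast genes had medians of the same sign. Of 11 protease and inhibitor genes 10 were tested, 9 were lower in value and the median was -0.28 (-0.14 without the 3 outlying libraries, and also -0.14 without knockout replicate 2). Mmp14, a membrane collagenase, was 21.4, 15.0, 18.4, 20.5 and 16.8 FPKM in wild-type DMM and 13.6, 12.4, 20.1, 12.3 and 13.8 FPKM in knockout replicates 1 to 5, again with replicate 3 of the knockout inside the wild-type range (log2 difference -0.34, limma unadjusted p = 0.0426). Mmp13, the main collagenase of osteoarthritis, had a log2 difference of -0.35 (limma unadjusted p = 0.0809). All 14 fibroblast and synovium genes were tested and 11 were lower in value, with a median of -0.26 that ran from -0.41 to -0.04 with 1 library left out, the last without knockout replicate 2. Fap had a log2 difference of -0.26 and Dcn, decorin, one of -0.40, or -0.15 and -0.26 without the 3 outlying libraries.

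**Figure D4:**
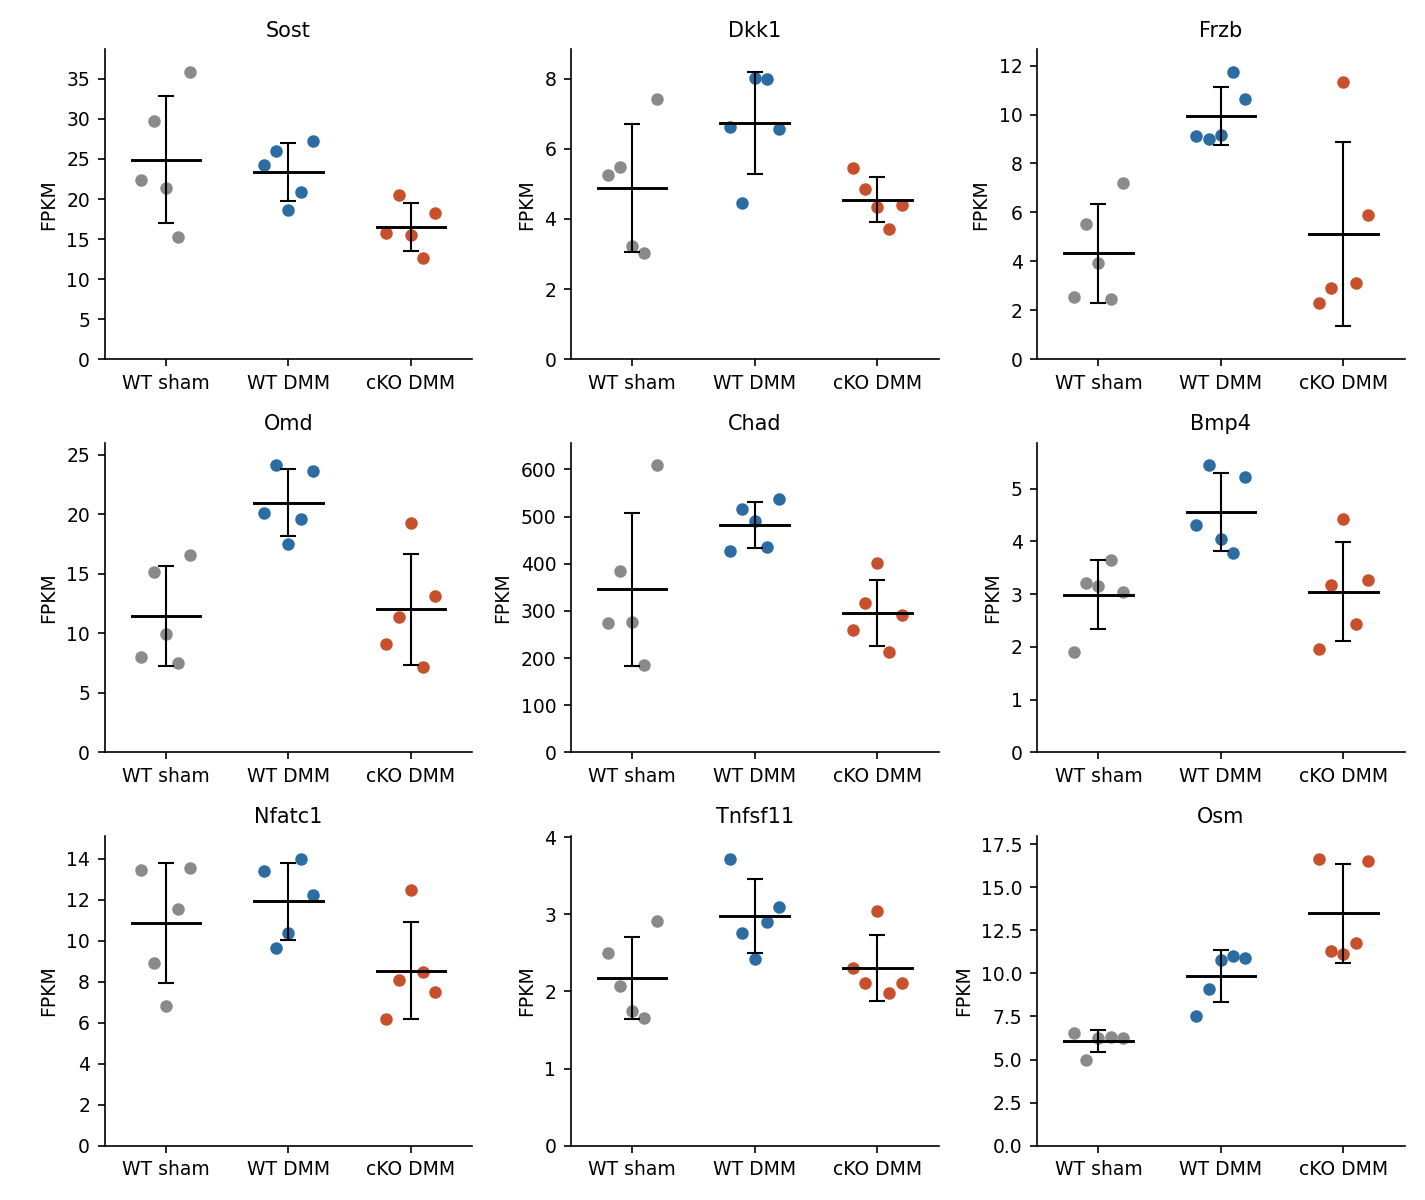
FPKM of 9 genes of osteocytes, bone, cartilage, osteoclasts and inflammation, with 1 point per library in sham wild-type, DMM wild-type and DMM knockout bone; bars are means and SD, and axes start at 0. For Frzb, Omd, Chad and Bmp4 the wild-type DMM mean is above both other groups, and knockout replicate 3 is the highest knockout library for each of these 4 genes; Osm is highest in the knockout.

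Osteoclast genes and the RANKL axis were lower in value by smaller amounts. Of 16 osteoclast genes 15 were tested, 12 were lower and the median was -0.13 (-0.14 without the 3 outlying libraries, and -0.21 without wild-type DMM replicate 2). Nfatc1, the calcium-activated transcription factor that directs osteoclast formation, was 13.4, 9.64, 10.4, 14 and 12.3 FPKM in wild-type DMM replicates 1 to 5 and 6.21, 8.07, 12.5, 8.47 and 7.48 FPKM in knockout replicates 1 to 5. All knockout libraries except replicate 3 lay below the wild-type DMM range (log2 difference -0.46, SE 0.19, limma unadjusted p = 0.0285). Clcn7, the chloride transporter of the resorption lacuna, had a log2 difference of -0.23 (limma unadjusted p = 0.037), and Acp5, tartrate-resistant acid phosphatase, one of -0.35 with wide overlap.

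All 6 genes of the RANKL and CSF1 axis were tested and all were lower in value, with a median of -0.18 (-0.17 without the 3 outlying libraries, and -0.12 without knockout replicate 4). Tnfsf11, which encodes RANKL, was 3.72, 2.75, 2.42, 2.90 and 3.10 FPKM in wild-type DMM and 2.30, 2.11, 3.04, 1.98 and 2.11 FPKM in knockout replicates 1 to 5. In the knockout 4 libraries were below the wild-type DMM range (log2 difference -0.27, SE 0.12, limma unadjusted p = 0.0447). The growth factor Csf1 had a log2 difference of -0.21, or -0.09 without the 3 outlying libraries.

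Calcium signalling genes showed few differences. Of 19 EF-hand calcium-binding genes other than Pvalb 13 were tested, with a median of 0.05; oncomodulin (Ocm), the nearest relative of parvalbumin, and the calbindins Calb1 and Calb2 did not pass the filter on low values. Of 20 genes for calcium entry, stores and pumps 16 were tested, 11 were lower in value and the median was -0.04, or -0.16 without wild-type DMM replicate 3. Itpr3, an endoplasmic calcium release channel, ran from 3.73 to 6.82 FPKM in wild-type DMM and from 2.55 to 5.22 FPKM in knockout bone (log2 difference -0.38, limma unadjusted p = 0.0325). Atp2b1, a calcium pump of the plasma membrane, ran from 2.82 to 5.30 and from 2.21 to 3.79 FPKM (log2 difference -0.35, limma unadjusted p = 0.0431). The channel kinase Trpm7 had a log2 difference of -0.52 with an unadjusted limma p of 0.101.

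Calcineurin is the calcium-dependent phosphatase that activates NFAT factors, and the Rcan genes encode its regulators. Rcan3 was 3.81, 3.67, 2.98, 3.30 and 3.24 FPKM in wild-type DMM replicates 1 to 5 and 2.72, 2.98, 2.85, 2.52 and 2.69 FPKM in knockout replicates 1 to 5. The DMM groups did not overlap, which held with lower values for 0.249% of all genes tested. The margin was narrow for Rcan3, and sham bone had 2.66 to 3.05 FPKM, close to the knockout. The log2 difference was -0.23 (SE 0.06, limma unadjusted p = 0.00317), and it ran from -0.26 to -0.20 with 1 library left out. Of the 20 genes of this list 18 were tested, 14 were lower in value and the median was -0.07, or -0.14 without wild-type DMM replicate 3. Mechanosensing genes had a median of -0.16 over 16 tested of 19, 14 of them lower in value, or -0.10 without the 3 outlying libraries and -0.29 without knockout replicate 3. P2rx7, an ATP-gated channel, had a log2 difference of -0.17, the polycystin gene Pkd1 one of -0.44, and Panx1, an ATP-releasing channel, one of 0.10. None of these 3 had an unadjusted p under 0.05, and the model of Pkd1 overlaps that of Tsc2.

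Of the 28 TGF-beta and BMP genes all were tested and 26 were lower in value, with a median of -0.16 (-0.07 without the 3 outlying libraries). Bmp4, a bone morphogenetic protein, was 4.31, 5.44, 4.04, 3.78 and 5.21 FPKM in wild-type DMM replicates 1 to 5 and 1.96, 3.18, 4.42, 2.43 and 3.27 FPKM in knockout replicates 1 to 5. Only knockout replicate 3 reached the wild-type DMM range (log2 difference -0.48, SE 0.16, limma unadjusted p = 0.00935, and -0.30 without the 3). Smad6, an intracellular inhibitor that BMP signals induce, ran from 4.3 to 6.57 FPKM in wild-type DMM and from 3.55 to 4.78 FPKM in knockout bone (log2 difference -0.34, limma unadjusted p = 0.0272). Sham bone had 1.96 to 3.96 FPKM of Smad6.

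Inflammatory genes were higher in value in the knockout, most of them at a low level. Of 10 cytokine genes 6 were tested, 5 were higher and the median was 0.18 (0.33 without the 3 outlying libraries, and 0.06 without wild-type DMM replicate 1). Cxcl2, a neutrophil attractant, was 1.34, 1.22, 0.997, 1.19 and 1.49 FPKM in wild-type DMM replicates 1 to 5 and 3.08, 4.23, 2.37, 0.483 and 2.83 FPKM in knockout replicates 1 to 5. In the knockout 4 libraries were above every wild-type DMM library and replicate 4 was below them (log2 difference 0.57, SE 0.24, limma unadjusted p = 0.0339). The chemokine Ccl4 had a log2 difference of 0.42 (limma unadjusted p = 0.0441), and Il1b, interleukin 1 beta, one of 0.19 with overlap, or 0.42 without the 3.

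Osm, oncostatin M, a cytokine made by myeloid cells that acts on osteoblasts and osteocytes, did not overlap between the DMM groups. It was 7.55, 9.12, 10.8, 11 and 10.9 FPKM in wild-type DMM replicates 1 to 5 and 16.7, 11.3, 11.1, 11.8 and 16.5 FPKM in knockout replicates 1 to 5. The lowest knockout value was just above the highest wild-type DMM value, and sham bone had 4.98 to 6.52 FPKM, below every DMM library of either genotype. The log2 difference was 0.40 (SE 0.13, limma unadjusted p = 0.00791, adjusted p = 0.935). Gdf15, a stress-induced cytokine, also did not overlap, with 0.828 to 1.51 FPKM in wild-type DMM and 1.66 to 2.48 FPKM in knockout bone (log2 difference 0.43). Lack of overlap was itself 1 of the rules for naming genes, and it held in this direction for 0.132% of all genes tested. Trem2, a lipid receptor of macrophages and osteoclasts, ran from 2.44 to 3.44 FPKM in wild-type DMM and from 3.43 to 4.35 FPKM in knockout bone, so the groups met at their edges (log2 difference 0.34, SE 0.08, limma unadjusted p = 0.00105).

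Slc2a3, the glucose transporter GLUT3, had the smallest p of the named genes after AC117239.2. It was 23.1, 12.2, 4.85, 11.2 and 9.18 FPKM in wild-type DMM replicates 1 to 5 and 35.1, 28.2, 27.2, 20.7 and 25.2 FPKM in knockout replicates 1 to 5. The groups overlapped through wild-type replicate 1 and knockout replicate 4, and sham bone had 25.4 to 30.5 FPKM, so the low group was wild-type bone after DMM. The log2 difference was 1.24 (SE 0.27, limma unadjusted p = 0.000329, adjusted p = 0.935). It passed the threshold without wild-type DMM replicate 1 (adjusted p = 0.0289) and with array weights (adjusted p = 0.045).

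Mpc1, a subunit of the mitochondrial pyruvate carrier, did not overlap: it was 11.2, 11.4, 11.4, 12.4 and 11.3 FPKM in wild-type DMM and 16.2, 13.3, 13.4, 15.5 and 15.0 FPKM in knockout replicates 1 to 5 (log2 difference 0.32, SE 0.09, limma unadjusted p = 0.00261). Sham bone spanned 10.7 to 15.3 FPKM, across both groups. Crls1, the cardiolipin synthase of mitochondria, had a log2 difference of 0.24. Kng2, a kininogen gene, did not overlap (log2 difference 0.32), and neither did the protease inhibitor gene Serpina3b (0.31) nor Gpr146 (0.45), whose model overlaps that of 3110082I17Rik. A lack of overlap with higher values, found for 0.132% of all genes tested, was among the rules for naming genes. Olfm4, a granule protein of a subset of neutrophils, had a log2 difference of 0.63 with overlap.

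Among lower values outside the lists, Igkv8-28, an immunoglobulin light chain segment, was 95.9, 36.3, 54.9, 96.2 and 18.2 FPKM in wild-type DMM replicates 1 to 5 and 6.92, 15.2, 13.3, 36.3 and 7.65 FPKM in knockout replicates 1 to 5. The groups overlapped, sham bone had 3.50 to 14.2 FPKM, and related segments make the division of reads uncertain (log2 difference -1.86, SE 0.50, limma unadjusted p = 0.00225). The cathepsin gene Ctsf (log2 difference -0.24), Tmem98 (-0.32), Crispld1 (-0.63) and Cox4i2, a subunit isoform of cytochrome oxidase (-0.49), did not overlap between the DMM groups. A lack of overlap with lower values, found for 0.249% of all genes tested, was among the rules for naming genes. Apbb1 had a log2 difference of -0.32 with narrow overlap.

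Markers of marrow and vessel cells moved with single libraries. All 8 neutrophil genes tested were higher in value (median 0.15), but the median was -0.03 without the 3 outlying libraries and -0.07 without knockout replicate 1. Of 8 B cell genes 7 were lower (median -0.27), with medians of -0.07 without the 3 and -0.03 without knockout replicate 1. In that library Pax5, a transcription factor of B cells, was 1.55 FPKM, against 4.44 to 7.04 FPKM in the other knockout libraries. Endothelial genes had a median of -0.11, or 0.02 without the 3.

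The remaining marker lists were close to the median of all genes or varied within groups. Erythroid genes had a median of -0.08, or 0.15 without knockout replicate 1, macrophage genes 0.01, T and NK cell genes 0.14, megakaryocyte genes 0.08, adipocyte genes 0.11 and proliferation genes 0.05. Of 6 slow muscle genes 3 were tested (median 0.30), and of 11 immediate early and heat shock genes 9 (median 0.08). Among adipocyte genes Cebpa had a log2 difference of 0.18, or 0.10 without the 3, and the lipase gene Lpl one of -0.25, neither with an unadjusted p under 0.05. The part of these cell types in the differences of bone genes was not tested. With the fast muscle level as a covariate the medians of the osteocyte, osteoblast and secreted Wnt inhibitor lists were -0.38, -0.39 and -0.48.

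**Figure D5:**
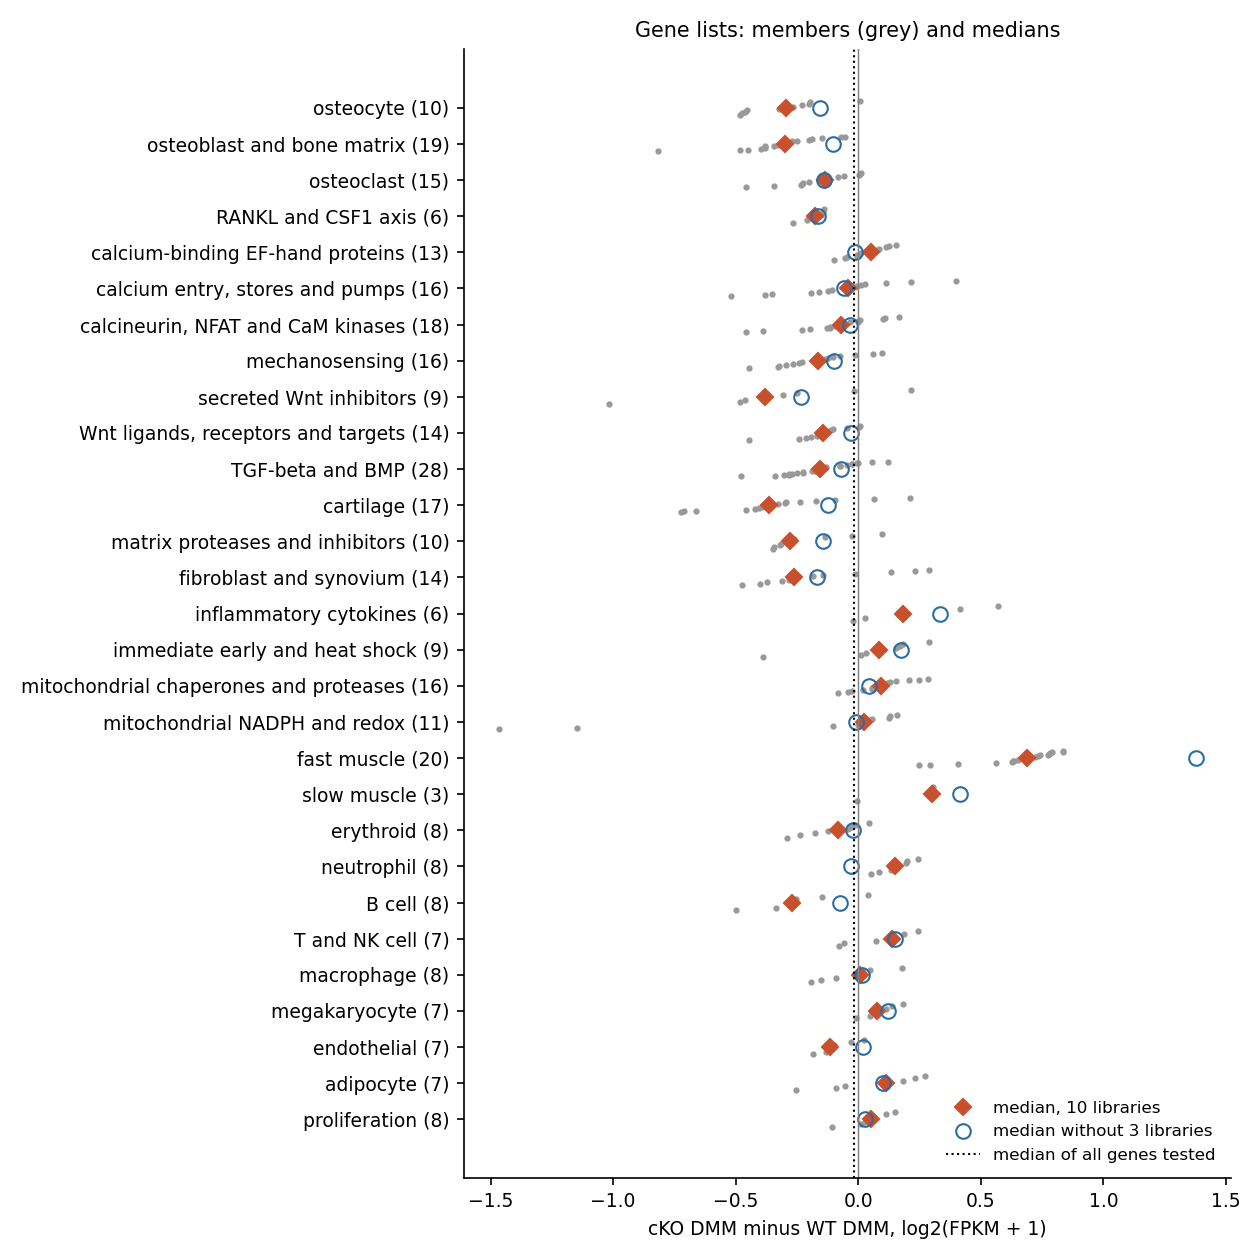
Log2 differences between knockout and wild-type DMM bone for the tested members of the 29 gene lists (grey points), with the median of each list over all 10 DMM libraries (diamonds) and without the 3 outlying libraries (circles); the dotted line is the median of all genes tested, -0.02, and numbers in parentheses are members tested. Osteocyte, osteoblast, cartilage and Wnt inhibitor lists lie to the left and come closer to 0 without the 3 libraries, while fast muscle lies at 0.69 and moves to 1.38.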

How the data were processed

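Poly(A) RNA of frozen, ground tibial subchondral bone was sequenced, with dUTP second strands per the labels' protocols; the strand setting of the counting step was not stated. The submitters' processing notes name Trimmomatic 0.39, STAR 2.7.10a, featureCounts 2.0.3 and build GRCm39. The authors deposited 1 table of FPKM values; all 15 sample columns matched by name and 0 were left over. No pair among 105 pairs of libraries was identical. Which tool made the FPKM was not stated.

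From these values, log2(FPKM + 1) was fitted with limma 3.58.1 (R 4.3.3; 1 mean for each of 3 groups, intensity trend, all 15 libraries) for genes reaching 1 FPKM in 5 or more libraries, with a threshold of 0.05 on the Benjamini-Hochberg adjusted p. The fit was also run on simulated data with noise drawn independently for each gene. Such data lack the variation that genes share between libraries here, so they do not show how the fit behaves on these libraries. Single values used exact two-sided permutation. Relative depth was read from the commonest ratio of FPKM values under 0.05. AC117239.2 was aligned to Hspe1 with BLAST 2.17.0, and overlapping models came from a GRCm38 annotation.

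The groups, gene lists, comparisons and the rule for named genes were chosen with earlier results of these data known. Named genes were Pvalb, genes past the threshold, the 10 per direction with the smallest p and an annotated name, the 6 per direction with the largest change among genes that did not overlap, up to 4 members per list, and genes already known from earlier results (AC117239.2, Hspe1, Hspd1, the Nnt IDs, Ckm, Sost, Dkk1, Dmp1 and Rcan3 among them), with 4833420G17Rik, Gm9752, Paip1 and Commd10 added after their values were seen; not all are printed. Alternatives were another pseudocount, filter, scaling, weighting, covariate, block or set of libraries.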

Additional observations from a re-analysis of the deposited data

Results flagged for a closer look

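Among the 70 gene IDs printed with values, each group of 5 DMM libraries was checked for a library whose gap to its nearest neighbour exceeded Dixon's 95% critical value of 0.71 of the range. Of 140 groups 12 were singled out, and chance singles out about 1 in 20.

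Knockout replicate 3 stood high for 3 genes of cartilage and matrix. Comp was 385 FPKM there and 137 to 205 FPKM in the other knockout libraries, Col10a1 was 141 against 39.5 to 63.5 FPKM, and Mmp14 was 20.1 against 12.3 to 13.8 FPKM. In wild-type DMM replicate 4 Col10a1 was 164 FPKM, against 80.5 to 95.4 FPKM in the others.

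Wild-type DMM replicate 3 stood high for Pvalb, at 375 FPKM against 33 to 132 FPKM, and for Hspe1, at 61.6 against 27.5 to 36.5 FPKM. Wild-type DMM replicate 2 stood low for Commd10, at 0.917 against 1.61 to 1.87 FPKM, and for Tmem98, at 4.41 against 5.39 to 5.69 FPKM. Mpc1 was 12.4 FPKM in wild-type DMM replicate 4 and 11.2 to 11.4 FPKM in the others, a small gap in a tight group. In the knockout, Igkv8-28 was 36.3 FPKM in replicate 4 against 6.92 to 15.2 FPKM, Notum was 2.19 FPKM in replicate 2 against 1.31 to 1.54 FPKM, and Lrp5 was 3.22 FPKM in replicate 4 against 5.40 to 5.70 FPKM.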

How the results depend on the processing

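The count of genes past the adjusted threshold was 1 in the fit reported and in most alternatives, always AC117239.2. It was 2 with no filter (Gm40117 in addition), 4 with array weights and, with 1 library left out, 1 to 2, the 2 without wild-type DMM replicate 1 (Slc2a3 in addition). The Pvalb difference turned to 1.045 with array weights and 0.436 without the 3 outlying libraries, and ran from -0.736 to 0.131 with 1 library left out; it was 0.131 without wild-type DMM replicate 3 and 0.003 without knockout replicate 2. Pvalb relative to fast muscle was -0.88 without the 3 libraries (exact permutation p = 0.0571) and -1.196 to -0.858 with 1 left out. The 52 genes without overlap were 17 with the filter of 5 FPKM, 152 with no filter, and 79 to 460 with 1 library left out, 460 without wild-type DMM replicate 3 and 231 without knockout replicate 3; fewer libraries overlap less by construction. With the replicate number as a block, 1 gene passed and Pvalb was -0.377. Deviations of same-numbered libraries correlated by -0.46, 0.25, -0.25, -0.09 and -0.12. The labels do not say that a number is shared between groups, and these 5 values cannot decide whether the samples were paired. For the other gene IDs printed, 1770 of 1772 repeats kept the side of the threshold, and the other 2 were Slc2a3 past it. The direction was not always kept: Sfrp4 turned higher without wild-type DMM replicate 3, and Sfrp2 without knockout replicate 2. Of 753 list medians 4 moved by over 1 SD: inflammatory cytokines, fast muscle and endothelial with array weights (0.347, 1.905 and 0.044) and endothelial without the 3 libraries (0.019). Absolute depth is unknown, so low genes such as Cxcl2 have a precision that cannot be given.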
